A study of Mus musculus with 6 samples.

Results

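The genes described here encode the subunits and helpers of the proteasome, and were taken by symbol from an RNA-seq table of mouse pancreatic islets. A gene was taken if its symbol begins with Psma, Psmb, Psmc, Psmd, Psme, Psmf or Psmg followed by a digit, without Psmb8, Psmb9 and Psmb10, the inducible immunoproteasome subunits. This gave 47 of the 19940 genes in the table. The samples were 3 of islets from pregnant C57BL6/J mice at gestational day 14.5 and 3 of islets from mice labelled as nonpregnant littermates, hand-picked after enzyme digestion of the pancreas. Although the design text names 5 animals in each group, 3 samples a group are used here, and the labels do not tie a sample to 1 animal. The question addressed was how islet transcripts differ in pregnancy.

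The proteasome is the barrel-shaped protease that destroys proteins tagged with ubiquitin. Its core particle stacks outer rings of alpha subunits, which form the gate, on inner rings of beta subunits, some of which cut the substrate. A regulatory cap recognises the ubiquitin tag, removes it and unfolds the substrate: its base holds a ring of ATPases and its lid a deubiquitinating enzyme. Dedicated chaperones build both parts, and other activators can dock on the core in place of the cap. In islet beta cells the proteasome clears misfolded proteins that leave the endoplasmic reticulum, where large amounts of proinsulin are folded.

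By role, 16 of the 47 genes encode core subunits (8 alpha, 8 beta) and 17 encode the cap (6 base ATPases, 3 other base subunits and 8 lid subunits). The remaining 14 are 3 chaperones of the base, 4 chaperones of the core, 5 activators and inhibitors, the pseudogene Psme2b-ps and Psmc3ip. Psmc3ip shares a symbol stem with the ATPase Psmc3 but encodes a meiotic recombination factor and no proteasome subunit. All 47 carried Ensembl IDs found in the GENCODE M21 annotation of GRCm38. Averaged over both groups, 46 of them reached 10 reads. The exception was Psma8, the testis form of an alpha subunit.

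The values available are the authors' mean reads for each group, their ratio and their p-values, so no spread between libraries can be shown. The authors' means summed to 87654449 reads for pregnant islets and 84493872 reads for nonpregnant islets. Genes that define islets were abundant in both groups, with an authors' mean of 11981604 reads for the insulin gene Ins2 in pregnant islets and 10394603 reads in nonpregnant islets. They did not move together: of 10 islet endocrine markers, 5 had a deposited log2 ratio above 0. The insulin gene Ins1 alone passed, as higher (log2 ratio 0.64, adjusted p = 1.61e-08 in the authors' deposited table). The glucagon gene Gcg was lowest (log2 ratio -0.48, adjusted p = 0.0772 in the authors' deposited table). Of 27 measured acinar marker genes, 26 passed the authors' test as higher in pregnant islets, and their summed share of mean reads was 1.76% in pregnant islets and 0.129% in nonpregnant islets. All 10 markers of dividing cells also passed as higher, with summed means of 10208 reads in pregnant and 2162 reads in nonpregnant islets. Acinar cells and dividing cells also express proteasome genes, and the part of either in the values below was not tested. In RNA of whole islets, more cells of a type and more RNA per cell cannot be told apart.

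The ratios of the core had a higher median than those of the cap. The 14 core genes active in most tissues are a set without Psma8 and Psmb11 that was chosen after the values were seen. Of these 14, 13 had a deposited log2 ratio above 0. Psma7, Psmb1 and Psmb7 passed an adjusted p under 0.05 as higher in pregnant islets. They were 3 of the 14 (21.4%) and 3 of all 16 core genes. The same rule called 7.57% of all genes in the table higher, and 9.8% of the 8796 with at least 1000 mean reads. None of the 17 cap genes passed in the authors' deposited table, where 1 of them, Psmc2, had an unadjusted p under 0.05. The median log2 ratio was 0.16 for the 15 core genes with at least 10 mean reads, 0.19 for these 14 and 0.05 for the cap, beside -0.01 over 15682 genes with at least 10 mean reads and -0.02 over 8796 genes with at least 1000. These differences are small, and the difference between core and cap was not tested, because it would need values per library. The ranges overlapped, at -0.13 to 0.39 for the core and -0.14 to 0.22 for the cap. Scaling both groups to the same sum of mean reads put 12 of the 14 core genes and 6 of the 17 cap genes above 0, against 12 of 17 cap genes as deposited, and 36.0% of genes with at least 10 mean reads. Without acinar genes and the 5 most read genes in that sum, 13 of the 14 core and 11 of the 17 cap genes were above 0. So were 7238 of the 15682 genes with at least 10 mean reads.

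**Figure D1:**
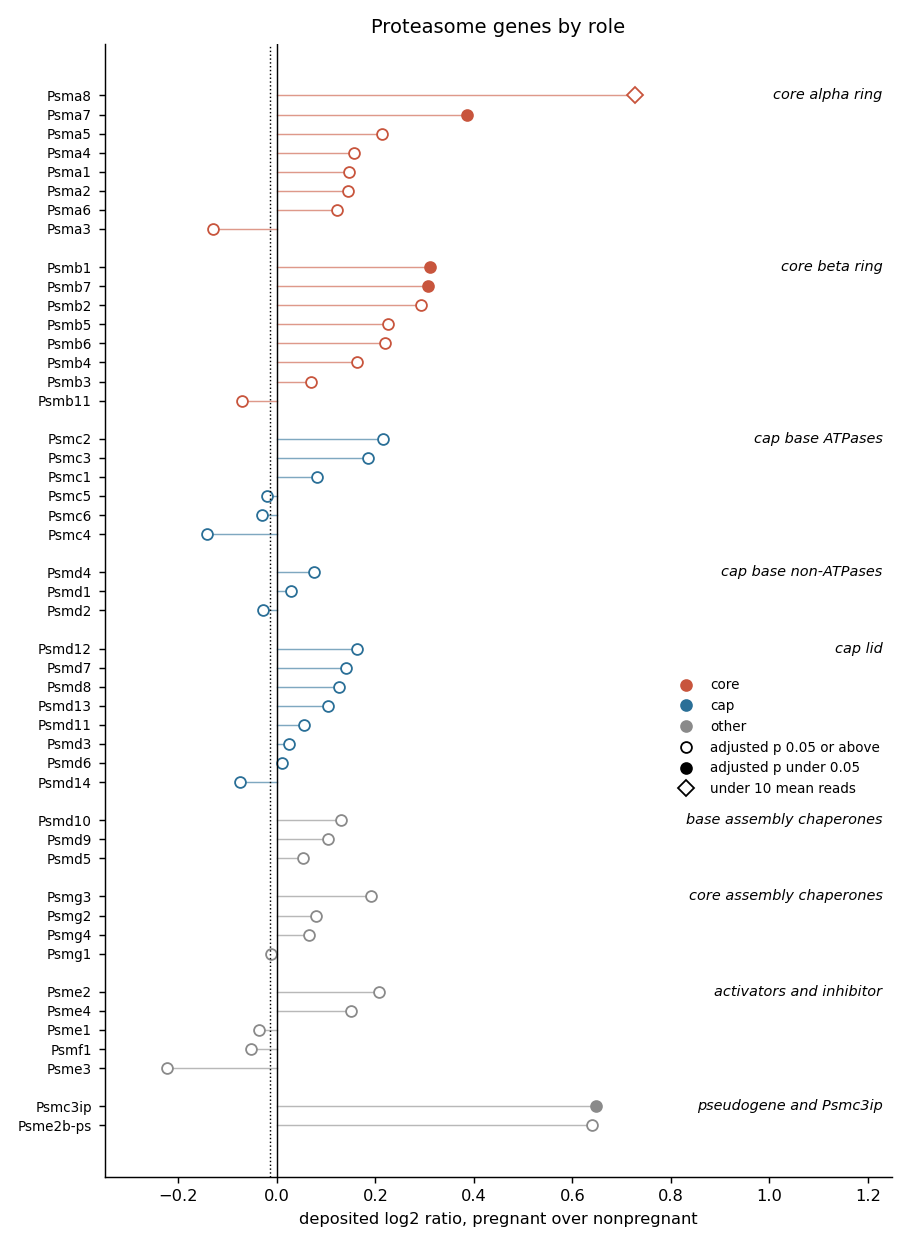
Deposited log2 ratio of pregnant over nonpregnant islets for each of the 47 genes, grouped by role and coloured as core, cap or other. Filled points passed an adjusted p under 0.05, the diamond marks Psma8 with under 10 mean reads, and the dotted line is the median of -0.01 over genes with at least 10 mean reads. All beta ring genes but Psmb11 lie to the right of 0, while the cap lies on both sides.

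Counted as calls, the genes did not stand out from the rest of the table. By the authors' adjusted p under 0.05, 4 of 47 (8.51%) were higher in pregnant islets, with Psmc3ip as the other one, and 0 were lower. Over all 19940 genes 7.57% were higher and 4.15% lower by the same rule, 11.7% in either direction. Among the 8796 genes with at least 1000 mean reads, which include 41 of the 47, 9.8% were higher and 6.43% lower. At an unadjusted p under 0.05 there were 8 higher and 1 lower of the 47 (19.1%), beside 22.2% of all genes, 12.4% higher and 9.78% lower. By sign alone, 35 of the 46 genes with at least 10 mean reads (76.1%) had a deposited log2 ratio above 0, against 47.8% of all genes with as many reads. With scaling to the sum of mean reads 25 of the 46 were above 0 (54.35%), against 36.0%. Without acinar genes and the 5 most read genes in that sum, 34 of the 46 were above 0. So were 7238 of 15682 genes with as many reads.

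How the authors' p-value arises bears on every call below. For the 41 genes with at least 1000 mean reads, the p-value followed the size of the ratio almost exactly, with a Spearman rho of -0.997 across genes between the absolute log2 ratio and p. Dividing the log2 ratio by the normal deviate of its p gave 0.101 to 0.126 for the 39 of them with p under 0.9, which is the standard error each p would imply under a normal test. Among 3233 genes of the table with 3000 to 8000 mean reads, the smallest absolute log2 ratio that passed was 0.29, a fold of 1.22. A ratio of that size did not ensure a call: of 660 genes of this range that reached it, 150 did not pass. Counting error alone, for 3 libraries per group, would give a standard error of 0.00899 to 0.0355 on the log2 scale for these 41 genes. Counting error was thus a small part of the error that the p-values imply for these genes. Psmc3ip, a called gene with fewer reads, is not among them. Its counting standard error was 0.0957, against 0.221 implied by its p.

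**Figure D2:**
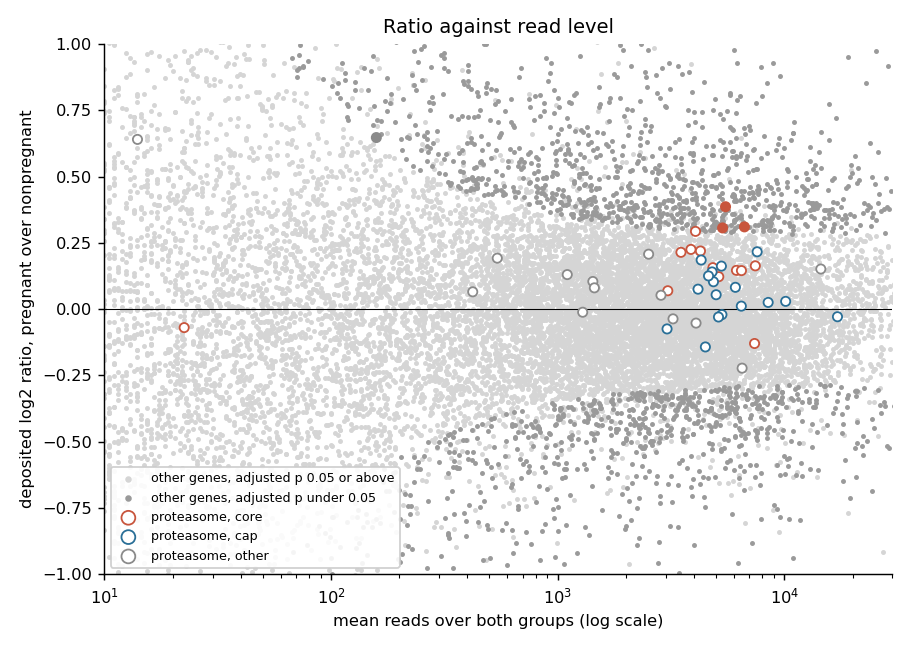
Deposited log2 ratio of pregnant over nonpregnant islets against mean reads over both groups (log scale) for genes with at least 10 mean reads; the vertical axis is limited to -1 to 1. Dark grey points are other genes with an adjusted p under 0.05, and coloured points are proteasome genes, filled where they passed. Psmb1 and Psmb7 sit close to the edge where called genes begin, a log2 ratio near 0.29 at this read level, and Psma7 lies above it at 0.39. Not every gene beyond that edge passed.

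In the alpha ring, Psma7 had the largest log2 ratio of the genes with at least 10 mean reads. The authors' mean for Psma7 was 6166 reads in pregnant islets and 4841 reads in nonpregnant islets. In the authors' deposited table it rose 1.31-fold, a log2 ratio of 0.39 (adjusted p = 0.00455). Psma7 (ENSMUSG00000027566) is a minus-strand gene of chromosome 2 (180036374 to 180042433, GRCm38), and its exons overlap those of no other annotated gene. Psma5 followed with authors' means of 3714 reads in pregnant and 3284 reads in nonpregnant islets (log2 ratio 0.21, adjusted p = 0.226 in the authors' deposited table). Psma1, Psma2, Psma4 and Psma6 lay close together, with deposited log2 ratios of 0.12 to 0.16 and no call. Psma3 was the exception in direction, at 6966 reads in pregnant and 7815 reads in nonpregnant islets as authors' means (log2 ratio -0.13, adjusted p = 0.546 in the authors' deposited table). Psma8 had authors' means of 10 reads in pregnant and 6 reads in nonpregnant islets. Its level per kilobase of the longest coding transcript was 0.111% of that of its paralog Psma7 in pregnant islets and 0.0848% in nonpregnant islets, and per kilobase of all annotated exons 0.200% in pregnant islets and 0.153% in nonpregnant islets.

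In the beta ring all 7 genes other than Psmb11 had deposited log2 ratios above 0, with a median of 0.23; with scaling to the sum of mean reads Psmb3 came to -0.02 and the other 6 to above 0. All 7 were above 0 when acinar genes and the 5 most read genes were left out of that sum. The catalytic subunits are Psmb6, with caspase-like activity, Psmb7, with trypsin-like activity, and Psmb5, with chymotrypsin-like activity. Psmb7 had an authors' mean of 5840 reads in pregnant islets and 4843 reads in nonpregnant islets, and rose 1.24-fold in the authors' deposited table (log2 ratio 0.31, adjusted p = 0.0363). The exons of Psmb7 (chromosome 2, 38588036 to 38644087, GRCm38, minus strand) overlap those of Nek6, a kinase gene on the opposite strand, over 405 bases. Nek6 itself rose 2-fold in the authors' deposited table, with authors' means of 629 reads in pregnant and 322 reads in nonpregnant islets. The groups differed by 997 mean reads for Psmb7 and by 307 for Nek6. The sources used here do not say whether reads were counted by strand.

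Psmb5 had an authors' mean of 4128 reads in pregnant islets and 3619 reads in nonpregnant islets (log2 ratio 0.23, adjusted p = 0.186 in the authors' deposited table). For Psmb6 the authors' means were 4535 reads in pregnant islets and 3997 reads in nonpregnant islets (log2 ratio 0.22, adjusted p = 0.203 in the authors' deposited table). The 3 catalytic genes thus spanned log2 ratios of 0.22 to 0.31, and Psmb7 passed among them. GENCODE names 4 processed pseudogenes of Psmb5, Psmb6 and Psmb7, and none of the 4 was analysed here. Whether reads were shared with these copies was not tested, and the 3 values are uncertain to that extent.

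Among the beta subunits without catalytic activity, Psmb1 rose, with a fold of 1.24 in the authors' deposited table (log2 ratio 0.31, adjusted p = 0.0306). Its authors' mean was 7299 reads in pregnant islets and 6037 reads in nonpregnant islets. Psmb1 (ENSMUSG00000014769) is found on chromosome 17 (15475021 to 15499751, GRCm38, minus strand). Psmb2 lay just outside the threshold, with authors' means of 4419 reads in pregnant and 3695 reads in nonpregnant islets and an adjusted p of 0.0533 in the authors' deposited table (log2 ratio 0.29). Psmb4 had a log2 ratio of 0.16 and Psmb3 of 0.07 in the authors' deposited table, where their adjusted p was 0.39 and 0.862. Psmb11, the thymus form of the Psmb5 position, had authors' means of 22 reads in pregnant and 23 reads in nonpregnant islets. Per kilobase of the longest coding transcript this was 0.113% of Psmb5 in pregnant islets and 0.135% in nonpregnant islets.

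Summed, the authors' means of the 14 widely active core genes came to 77373 reads in pregnant islets and 70037 reads in nonpregnant islets, a ratio of 1.10. The beta ring without Psmb11 gave 37094 reads in pregnant and 32338 reads in nonpregnant islets (ratio 1.15), and the alpha ring without Psma8 gave 40279 reads in pregnant and 37699 reads in nonpregnant islets (ratio 1.07). For the cap the sums were 107366 reads in pregnant and 106461 reads in nonpregnant islets, a ratio of 1.01, against 1.04 for the whole table. As a share of all mean reads, the core genes including Psma8 and Psmb11 took 0.0883% in pregnant islets and 0.0829% in nonpregnant islets, while the cap took 0.122% in pregnant islets and 0.126% in nonpregnant islets.

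**Figure D3:**
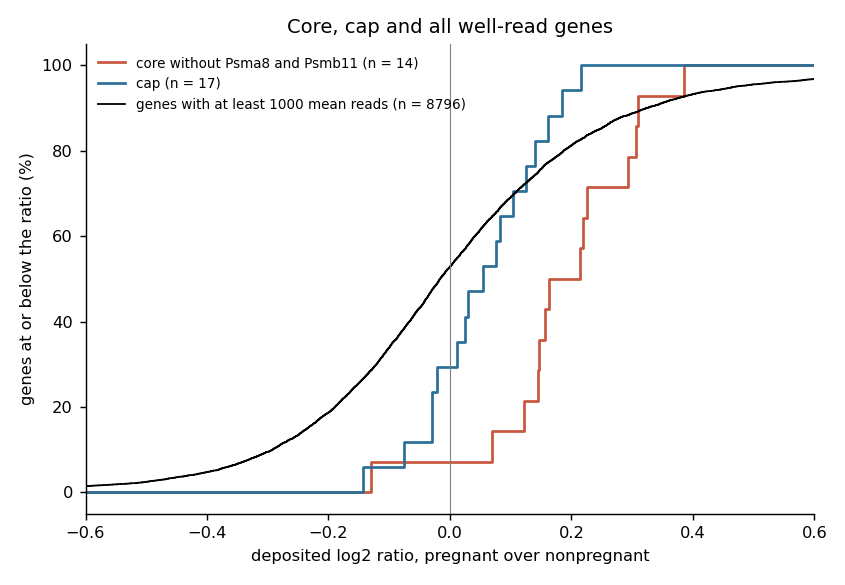
Share of genes (%) at or below each deposited log2 ratio of pregnant over nonpregnant islets, for 14 core genes, 17 cap genes and 8796 genes with at least 1000 mean reads. The core curve runs to the right of the other curves through most of its length, with a median of 0.19, while the cap curve has a median of 0.05.

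The transcription factor NFE2L1, which induces proteasome genes when proteasome activity falls short, binds the antioxidant response element (ARE), so promoters of the genes described here were searched for its letters. Any link between a match and the ratios was not tested. The RefSeq promoter table of GRCm38.p6 gives 250 bases before and 50 after a start site and matched 38 of the 47 genes, 12 of them core and 14 cap. The letters searched on both strands were TGACNNNGC and TGAGNNNGC. Of the 38 genes 17 (44.7%) held a match of either form. Of the 12 core genes 7 (58.3%) did, of the 14 cap genes 5 (35.7%), and 30.8% of all 27025 genes with a promoter there. The core windows are shown, each read 5′ to 3′ on the strand that carries the match, with the match in capitals:
Psma7 (chr2:180042415-180042433, minus strand): gcgctgacggTGAGTGTGC
Psma5 (chr3:108256924-108256952, minus strand): cgtcgaggagTGAGCACGCcgcgctttgg
Psma4 (chr9:54950722-54950750, plus strand): gtgggcagacTGAGCCCGCcccagcactg
Psma4 (chr9:54950872-54950900, minus strand): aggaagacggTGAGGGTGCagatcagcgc
Psmb6 (chr11:70525338-70525366, plus strand): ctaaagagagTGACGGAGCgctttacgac
Psmb3 (chr11:97703414-97703442, plus strand): gcgttgacccTGAGAAAGCcagagccggt
Psma6 (chr12:55384042-55384070, minus strand): tgagagctgaTGAGGTTGCctgacctgac
Psma6 (chr12:55398723-55398751, minus strand): gcactgccccTGAGTAGGCgggccctcgc
Psmb5 (chr14:54618024-54618052, minus strand): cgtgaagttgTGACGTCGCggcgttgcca

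Psma7, which passed the test, held its match after the start site, while the catalytic genes Psmb5 and Psmb6 held the TGACNNNGC form just before it. The promoters of Psmb1, Psmb2 and Psmb7 were not analysed here. A match of so few fixed letters is common, and where an A had to follow these letters, Psma4 alone of the core genes matched within its window, 8.33% of 12 against 8.66% of all genes. The match of Psma7 ends at the last base of its window, so the base that follows was not read. The CCAAT box, written CCAAT, was present in 7 core genes (58.3%), 4 cap genes (28.6%) and 41.1% of all genes. The letters GCGCANGCG of the NRF1 site were present in 3 core genes, 3 cap genes (21.4%) and 7.03% of all genes. NRF1 here means the nuclear respiratory factor, a different protein from NFE2L1. The 250 bases before the start site are given for Psma7 and for the catalytic genes Psmb6 and Psmb5, on the strand of the gene, with matches to any of these motifs in capitals:
Psma7 (chr2:180042465-180042714, minus strand): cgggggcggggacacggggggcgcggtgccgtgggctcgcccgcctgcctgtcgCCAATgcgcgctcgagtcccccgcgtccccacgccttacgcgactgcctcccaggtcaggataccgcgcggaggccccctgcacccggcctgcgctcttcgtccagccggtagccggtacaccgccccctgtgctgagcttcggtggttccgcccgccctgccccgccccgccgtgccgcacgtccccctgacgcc
Psmb6 (chr11:70525107-70525356, plus strand): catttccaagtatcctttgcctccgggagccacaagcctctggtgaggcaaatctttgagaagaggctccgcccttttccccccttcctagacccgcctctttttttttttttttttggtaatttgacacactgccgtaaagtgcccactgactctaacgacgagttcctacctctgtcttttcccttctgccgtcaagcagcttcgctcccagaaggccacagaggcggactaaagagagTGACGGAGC
Psmb5 (chr14:54617996-54618245, minus strand): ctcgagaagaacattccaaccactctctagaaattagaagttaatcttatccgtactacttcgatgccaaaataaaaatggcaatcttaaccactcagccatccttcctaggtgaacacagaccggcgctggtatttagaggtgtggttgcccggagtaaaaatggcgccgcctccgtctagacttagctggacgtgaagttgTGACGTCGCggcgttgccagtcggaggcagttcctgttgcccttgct

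In the cap, the base ATPases, which unfold the substrate and thread it into the core, split evenly in sign, 3 above and 3 below 0 as deposited, and with scaling to the sum of mean reads 2 of the 6 were above 0. Without acinar genes and the 5 most read genes in that sum, 3 of the 6 were above 0. Psmc2 had the largest log2 ratio of the cap, with authors' means of 8064 reads in pregnant and 7114 reads in nonpregnant islets (0.22, p = 0.038, adjusted p = 0.189 in the authors' deposited table). Psmc4 had the lowest, with authors' means of 4209 reads in pregnant and 4761 reads in nonpregnant islets (-0.14, adjusted p = 0.501 in the authors' deposited table). Of the other base subunits, the scaffold Psmd2 had the most reads of the 47 genes, at authors' means of 16780 in pregnant and 17545 in nonpregnant islets (log2 ratio -0.03, adjusted p = 0.98 in the authors' deposited table). Psmd4, a ubiquitin receptor, stood at a log2 ratio of 0.08 and the scaffold Psmd1 at 0.03 in the authors' deposited table, neither called. The 3 log2 ratios of this group ran from -0.03 to 0.08.

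The 8 lid genes had deposited log2 ratios of -0.08 to 0.16 with a median of 0.08. Psmd12 was highest, at authors' means of 5510 reads in pregnant and 5046 reads in nonpregnant islets (adjusted p = 0.405 in the authors' deposited table). Psmd14, the deubiquitinating enzyme that strips ubiquitin chains at the entrance, was lowest, at authors' means of 2923 reads in pregnant and 3154 reads in nonpregnant islets (adjusted p = 0.845 in the authors' deposited table). Its deposited log2 ratio was below 0 and those of the other 7 lid genes above it; with scaling to the sum of mean reads 4 of the 8 were above 0. Without acinar genes and the 5 most read genes in that sum, 6 of the 8 were above 0.

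**Figure D4:**
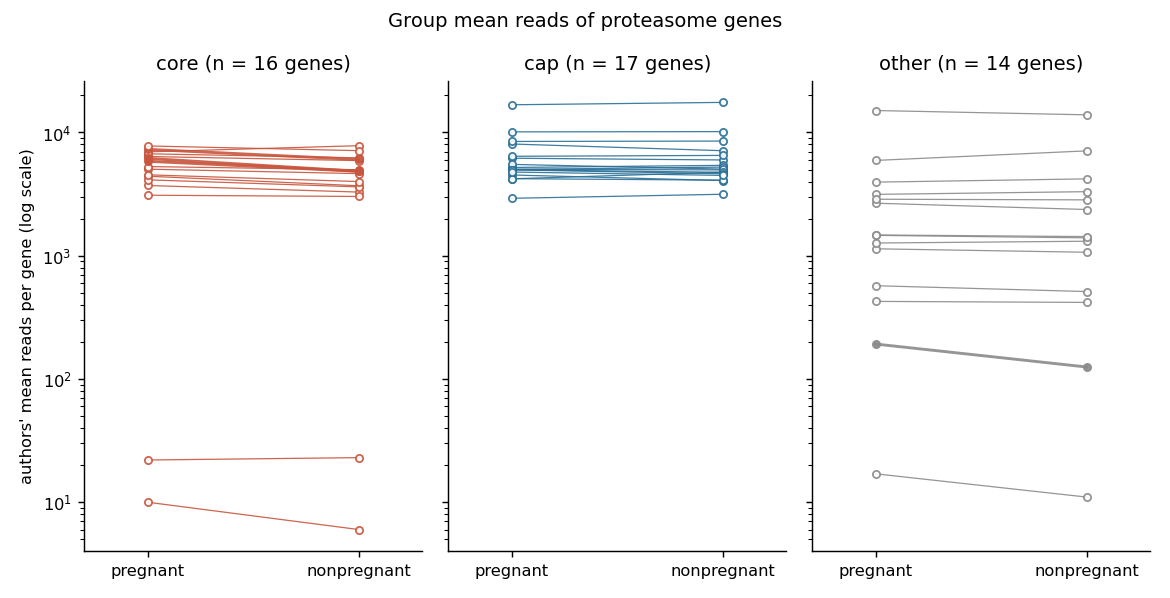
Authors' mean reads per gene (log scale) in pregnant and nonpregnant islets, with 1 line per gene, for 16 core, 17 cap and 14 other genes; thick lines and filled points mark an adjusted p under 0.05. The lines are nearly flat at this scale: apart from Psma8 and Psmb11, core and cap genes lie between 2923 and 17545 reads.

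Chaperones of assembly had lower mean reads than the core and cap genes other than Psma8 and Psmb11, and no call. The base chaperones Psmd5, Psmd9 and Psmd10 had deposited log2 ratios of 0.05 to 0.13. Psmg1, Psmg2, Psmg3 and Psmg4, which guide the alpha ring together, had deposited log2 ratios of -0.01 to 0.19. Psmg3 was highest of these with authors' means of 571 reads in pregnant and 512 reads in nonpregnant islets (adjusted p = 0.521 in the authors' deposited table), and Psmg1 lowest with 1268 reads in pregnant and 1311 reads in nonpregnant islets.

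Of the activators, Psme3, which encodes a nuclear activator that works without ubiquitin, had the lowest log2 ratio of all 47 genes. The authors' means for Psme3 were 5933 reads in pregnant islets and 7093 reads in nonpregnant islets (log2 ratio -0.22, p = 0.0338, adjusted p = 0.175 in the authors' deposited table). Psme1 and Psme2 encode the partners of the interferon-inducible activator and did not share a sign. Psme2 had authors' means of 2668 reads in pregnant and 2371 reads in nonpregnant islets (log2 ratio 0.21, adjusted p = 0.269 in the authors' deposited table), while Psme1 had 3146 reads in pregnant and 3310 reads in nonpregnant islets (log2 ratio -0.04, adjusted p = 0.975 in the authors' deposited table). In the authors' deposited table, Psme4, the large activator, was at a log2 ratio of 0.15 and Psmf1, named as an inhibitor, at -0.05, without a call.

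In the authors' deposited table Psmc3ip rose 1.57-fold (log2 ratio 0.65, adjusted p = 0.0327), the only gene outside the core to pass. Its authors' mean was 192 reads in pregnant islets and 125 reads in nonpregnant islets. Its exons overlap those of Mlx on the opposite strand over 385 bases, and Mlx had authors' means of 3520 reads in pregnant and 3284 reads in nonpregnant islets (adjusted p = 0.552 in the authors' deposited table). The difference between groups was 67 mean reads for Psmc3ip and 236 for Mlx. The pseudogene Psme2b-ps had authors' means of 17 reads in pregnant and 11 reads in nonpregnant islets. It overlaps exons of 9930111J21Rik1 on the same strand over 41 bases. Whether its reads come from Psme2, its parent gene, or from that overlapping gene was not tested.

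Levels of different genes were compared per kilobase. Per kilobase of all annotated exons, the 14 widely active core genes had a median of 2145 reads (range 1347 to 4592) in pregnant islets and a median of 2005 in nonpregnant islets. The cap had a median of 1702 (range 789 to 4156) in pregnant islets and 1563 in nonpregnant islets. Psmb5 was highest in pregnant islets, at 4592 in pregnant and 4026 in nonpregnant islets, followed by Psma6 at 4288 in pregnant and 4040 in nonpregnant islets. In nonpregnant islets Psmd2 was highest, at 4156 in pregnant and 4345 in nonpregnant islets. The order also depended on the length used. Per kilobase of the longest coding transcript, Psmb4 was highest, at 6573 in pregnant and 6019 in nonpregnant islets, and the medians were 4813 for the core and 2923 for the cap in pregnant islets, against 4100 and 2926 in nonpregnant islets. Under both lengths the core median exceeded the cap median in each group, with ranges that overlapped. The 4 core chaperones and 3 base chaperones lay below both medians, at 197 to 943 and 202 to 775 per kilobase of exon in pregnant islets. Psmg1 (943) and Psmg2 (848) were above the lowest cap gene, Psmd11 (789). Across the 41 genes with at least 1000 mean reads, the log2 ratio had a Spearman rho of -0.19 with exon length and 0.02 with mean reads, as a description of genes from the same libraries.

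The immunoproteasome subunits take the places of the catalytic ones in immune cells and under interferon. Psmb8, the counterpart of Psmb5, had authors' means of 1031 reads in pregnant and 885 reads in nonpregnant islets (log2 ratio 0.26, adjusted p = 0.217 in the authors' deposited table). For Psmb10, the counterpart of Psmb7, the authors' means were 968 reads in pregnant and 858 reads in nonpregnant islets (log2 ratio 0.21, adjusted p = 0.476 in the authors' deposited table). Neither passed, and the log2 ratio of Psmb8 lay inside the range of the 3 catalytic genes, that of Psmb10 just below it. Per kilobase of the longest coding transcript, Psmb8 stood at 13.8% of Psmb5 in pregnant islets and 13.5% in nonpregnant islets, and Psmb10 at 14.7% of Psmb7 in pregnant islets and 15.7% in nonpregnant islets. These shares depended on the length used: per kilobase of all annotated exons, Psmb8 stood at 6.64% of Psmb5 in pregnant islets and 6.5% in nonpregnant islets, and Psmb10 at 33.3% of Psmb7 in pregnant islets and 35.5% in nonpregnant islets. Of 8 immune cell markers measured, 1 passed as higher, Lyz2, and their summed means were 3090 reads in pregnant and 2891 reads in nonpregnant islets. The line labelled Psmb9, with authors' means of 13 reads in pregnant and 26 reads in nonpregnant islets, carries an Ensembl ID that the annotation used here does not hold, so its level was not compared with Psmb6.

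Among 30 other genes of the pathway that were measured, 3 were higher and 1 lower by the authors' adjusted p, with a median log2 ratio of -0.02. By the same rule, 7.57% of all 19940 genes were higher and 4.15% lower. Among genes with at least 1000 mean reads the shares were 9.8% and 6.43%. Ube3c, a ubiquitin ligase that binds the proteasome, rose 1.44-fold in the authors' deposited table, with authors' means of 17014 reads in pregnant and 12057 reads in nonpregnant islets (adjusted p = 0.000576). Rps27a, which encodes ubiquitin fused to a ribosomal protein, rose 1.26-fold (adjusted p = 0.0171 in the authors' deposited table). Ddi2, the protease that activates the transcription factor NFE2L1, fell to a ratio of 0.8 (adjusted p = 0.0274 in the authors' deposited table), with authors' means of 6356 reads in pregnant and 8091 reads in nonpregnant islets. The exons of Rps27a and Ddi2 overlap those of neighbouring genes. Nfe2l1 itself had authors' means of 36261 reads in pregnant and 31897 reads in nonpregnant islets (log2 ratio 0.22, adjusted p = 0.158 in the authors' deposited table). The core maturation factor Pomp had a log2 ratio of 0.10 and the cap subunits outside the symbol rule, Adrm1 and Shfm1, of 0.03 and 0.20 in the authors' deposited table, none called. The polyubiquitin gene Ubb had a log2 ratio of 0.18 in the authors' deposited table, without a call.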

How the data were processed

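Per the labels' protocols, RNA of hand-picked islets went into TruSeq transcriptome libraries for sequencing. TopHat2 2.0.12, TopHat, Bowtie and HTSeq 0.5.3p3 and the build GRCm38 are named in the submitters' processing notes. The authors deposited 1 table with mean reads per gene and group, a fold change (a linear ratio, pregnant over nonpregnant), its log2, a p-value and its adjusted form, per the file headers. Scaling, test and strand handling are not given in the sources used here. Of 19963 lines, genes repeated on several lines (21) were counted once, leaving 19940. A Benjamini-Hochberg adjustment of the deposited p-values gave the deposited adjusted values within 0.00203. The deposited log2 ratio exceeded that of the rounded means by a median of 0.04 over 10102 genes with over 500 reads. No model over libraries could be fitted, so the authors' adjusted p under 0.05 made the calls; groups of genes were described by counts and medians over genes with at least 10 mean reads. Levels per kilobase used GENCODE M21, which held 19256 of the genes. Named were all called genes, the highest and lowest ratio of each role, the catalytic subunits, and called pathway genes, of which 1 is not reported here; Psmb2, Psma5 and others beyond these were chosen after their values were seen. Members and lists were chosen with earlier results of these data known. Python 3.11.15, pandas 2.3.3, numpy 2.4.6 and scipy 1.17.1 were used; the adjustment and motif search were tested on simulated data. The alternatives tried were pseudocounts, scalings, read filters and thresholds.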

Additional observations from a re-analysis of the deposited data

How the results depend on the processing

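Scaling to the sum of mean reads gave medians of 0.07 for the core, -0.03 for the cap and 0.02 for all 47 genes, against 0.16, 0.05 and 0.11 as deposited, so that the median of the cap changed sign. It left 12 of 14 widely active core genes above 0, beside 36.0% of genes with at least 10 mean reads. It turned 10 of 46 log2 ratios below 0, Psmb3 and 6 cap genes among them. Ratios recomputed from the group means with a pseudocount of 1 turned 3 below 0, all cap genes. Those recomputed ratios lack the median excess of 0.04 of the deposited log2 ratio over that of the means. No called gene changed sign. The sum without acinar genes and the 5 most read genes gave 0.15 for the core and 0.04 for the cap. It turned 1 of 46 log2 ratios below 0, that of Psmd6. Core minus cap was 0.11 and ranged from 0.09, without genes whose exons overlap another gene, to 0.13, without Psma8 and Psmb11 or with no read filter or one of 100 mean reads; the first and second alternatives were chosen after seeing the data. The count of higher genes was 4, fell to 1 (Psma7) at an adjusted p under 0.01 and was 8 at an unadjusted p under 0.05, where 1 gene was lower; adjusting over genes with at least 10 mean reads gave 5 by adding Psmb2. No paired analysis was possible because the table holds group means without values per library; leaving out single libraries was not run for the same reason.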

Other observations

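The deposited Psmb9 line carries an Ensembl ID absent from GENCODE M21, where Psmb9 has another ID, not analysed here. Its authors' means of 13 reads in pregnant and 26 reads in nonpregnant islets stood far below those of its genomic neighbour Psmb8, at 1031 reads in pregnant and 885 reads in nonpregnant islets.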
